A study of Mus musculus with 4 samples.

Results

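The receptors and transcription factors that carry interferon signals from the cell surface to DNA were examined in mouse cells. The titles name the samples as endothelial cells made from induced pluripotent stem cells (iPSCs), that is, from body cells returned to a pluripotent state. The 9 genes were 3 receptor subunits (Ifnar1, Ifnar2 and Ifngr1), 5 interferon regulatory factors (Irf1, Irf2, Irf3, Irf7 and Irf9) and 1 signal transducer and activator of transcription (Stat2). The genes were chosen by name, as every probe set of the deposited table whose platform annotation gives 1 of these symbols alone, which yielded 16 probe sets for all 9 genes, out of 18193 genes measured. The control group was cells from 2 healthy mice, and the other group was cells from 2 mice with diet-induced obesity (DIO), 1 Affymetrix array per mouse. All 4 mice were 24 weeks old, and each culture was kept in medium for endothelial cells and detached with trypsin before RNA isolation. Per the labels these are biological duplicates, with no strain, sex, diet or number of iPSC lines per mouse named, so the spread between the 2 arrays of a group holds mouse, line and culture together. The comparison asks whether the upstream interferon machinery differs between cells from obese and from healthy animals. Control 1, control 2, DIO 1 and DIO 2 stand for the arrays, with the mouse number of each title, and a shared number does not pair mice.

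Type I interferons such as interferon alpha and beta bind a receptor made of Ifnar1 and Ifnar2, and interferon gamma binds a receptor whose ligand-binding chain is Ifngr1. Janus kinases attached to these chains then phosphorylate STAT proteins. After type I interferon, Stat2 joins another STAT and Irf9 in the complex ISGF3, which binds the interferon-stimulated response element in target promoters, while interferon gamma acts through STAT dimers at the gamma-activated site. Irf3 and Irf7 are switched on by sensors of viral nucleic acid and induce the interferon genes themselves. Irf1 activates and Irf2 mostly represses through closely related DNA motifs. In endothelium, interferons are known for antiviral defence and for restraining vessel growth.

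The labels are not uniform on what the cells are: the titles name derived endothelial cells and the cell type entry reads iPSC. Of 15 endothelial markers, 11 lay below 7.09, the median of gene means (log2 level), among them Tie1 at 3.51 to 3.72 in the group means, while Esam was at 8.80 and 8.94. All 12 markers of pluripotent cells lay above it. They averaged 10.15 and 9.42 on the control arrays against 10.64 and 9.67 on the DIO arrays, and for 11 of 12 the DIO mean was the higher. Their median difference of 0.41 was −0.06 without control 2 and −0.16 without DIO 1. Epidermal markers averaged 6.86 and 12.09 in control 1 and control 2 and 8.32 and 9.38 in DIO 1 and DIO 2, so control 2 stood apart. All 8 simple epithelial markers lay above the median of gene means, from Cldn6 at a mean of 8.65 to Krt8 at 14.04. The median difference of these simple epithelial markers was 0.04. Of 8 leukocyte markers 6 lay below the median of gene means, with the pan-leukocyte gene Ptprc at 3.84 to 4.11 over the arrays, while Csf1r and Cd68, both known from macrophages, were bright at means of 11.32 and 10.66. Csf1r differed by −0.49 ± 0.14 (limma, adjusted p = 0.728), with both DIO arrays below both controls. It was the only 1 of the 8 leukocyte markers separated in that direction, against 17.0% of all genes. The opposite way, with DIO higher, 4 of the 8 were separated, against 21.4% of all genes. The DIO mean was higher for 5 of the 8, and the median difference of this list was 0.16. The 18S ribosomal RNA probe sets averaged 12.60 and 12.65 on the control arrays against 12.30 and 11.96 on the DIO arrays. Levels are log2 values, differences are the DIO mean minus the control mean on that scale, and levels of different probe sets serve only to place genes below or above the median of gene means, since probe sets differ in how strongly they bind. In bulk samples such as these, fewer cells of a type and less RNA per cell cannot be told apart.

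Most of these genes had a lower mean in DIO, and none passed the test. The 9 genes were chosen with earlier results of these data known, so the counts below are not independent of those results. Of the 9 genes, 8 had a lower DIO mean, against 46.7% of all genes (8502 of 18193). After quantile normalization 7 of the 9 did, against 7987 of all genes. With arrays centred on their median over genes 6 of the 9 did, against 5875 of all genes. Both DIO arrays lay below both controls for 4 of the 9, Ifnar1, Irf3, Irf7 and Stat2, against 17.0% of all genes. For 0 of the 9 did both lie above, against 21.4%. Groups that do not overlap, in either direction, made up 38.4% of all genes. The number of the 9 genes with both DIO arrays below was 3 after quantile normalization, where 15.4% of all genes had the pattern, and 7 without control 1, where 29.6% had it. With arrays centred on their median over genes it was 1 (Stat2), or 11.1% of the 9 against 9.89% of all genes, a share near the background. In limma, with p-values adjusted by the Benjamini-Hochberg method over all genes, 0 of 9 passed 0.05 (adjusted p between 0.735 and 0.959), as did 0% of all genes (without control 1, 483 genes passed, none of them among the 9), and 0 of 9 had an unadjusted p below 0.05, against 6.58% of all genes. With each gene's probe sets averaged, Ifnar1 differed by −0.58 ± 0.11 (limma, unadjusted p = 0.00485, adjusted p = 0.731), the largest difference of the 9 in that fit. The median difference was −0.07 for the 3 receptors and −0.30 for the 6 factors, beside 0.02 over all genes. All 6 factors had a lower DIO mean, while 5 did after quantile normalization, with arrays centred on their median over genes or without DIO 1, and 4 did without control 2. The 18S signal was also lower in both DIO arrays and most pluripotent markers had higher DIO means, and the part of either in these differences was not tested. The receptors' median changed sign with the handling of the arrays and probe sets, reaching 0.085 without control 1 and −0.23 without control 2. Leaving out control 1 put the factors' median at −0.51 and leaving out control 2 at −0.11, against −0.15 and −0.45 on leaving out DIO 1 or DIO 2. Receptors and factors thus had no stable contrast: without control 2 the receptors' median was the lower, and without DIO 1 both were −0.15. With 2 arrays per group an exact 2-sided permutation test cannot give a p under 0.333.

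**Figure D1:**
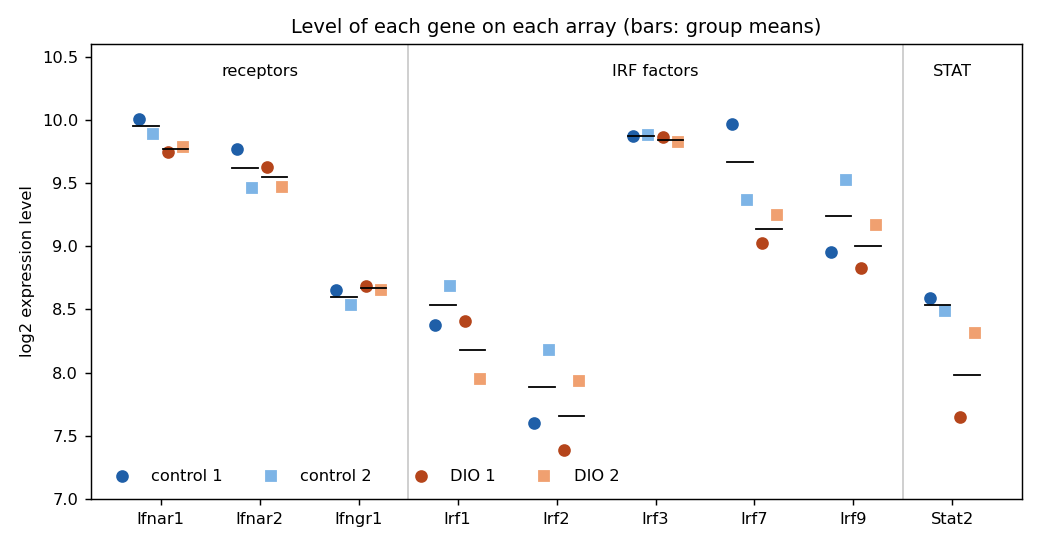
Log2 expression level (vertical axis) of each of the 9 genes on the 4 arrays, circles for mouse 1 and squares for mouse 2 of each group, with short bars at the group means. Irf7 and Stat2 show the widest separation of group means, with Stat2 in DIO 1 at 7.65, while Irf3 lies between 9.82 and 9.88 on every array.

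Among the receptors, Ifnar1, the first chain of the type I interferon receptor, measured 10.01 and 9.89 on the control arrays against 9.74 and 9.79 on the DIO arrays. Its groups did not overlap, with a gap of 0.10 between them. The difference was −0.18 ± 0.13 (SE, n = 2 per group; 95% confidence interval −0.53 to 0.16; limma, adjusted p = 0.783), and it stayed below 0 with any 1 array left out, between −0.24 and −0.12. Ifnar2, the second chain, whose cytoplasmic tail carries most of the signalling, read 9.77 in control 1, 9.46 in control 2, 9.62 in DIO 1 and 9.47 in DIO 2. The DIO values lay inside the range of the controls, and the difference of −0.07 ± 0.17 (95% interval −0.53 to 0.39; adjusted p = 0.939 in limma) turned to 0.085 without control 1 and 0.0073 without DIO 2. Ifngr1, which binds interferon gamma, measured 8.66 and 8.54 on the control arrays against 8.68 and 8.65 on the DIO arrays. It was the 1 gene of the 9 with a higher DIO mean, by 0.07 ± 0.13 (95% interval −0.28 to 0.42; adjusted p = 0.912 in limma), and it stayed between 0.01 and 0.13 with any array left out. These intervals hold the differences compatible with 2 arrays per group and are not a limit of detection.

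Promoter sequence is shown for 4 factors, Stat2 and Irf7 because their means differed most, and Irf1 and Irf2 because their windows hold an exact match to a motif that interferon signalling is known to use. Each stretch is the 250 bases before the RefSeq start of transcription, from build GRCm38.p6, 5′ to 3′ on the gene's strand, with motif matches in capitals: Stat2 at chr10:128270248-128270497, plus strand; Irf7 at chr7:141266425-141266674, minus strand; Irf1 at chr11:53769764-53770013, plus strand, the first of its 2 listed starts; and Irf2 at chr8:46739495-46739744, plus strand.
Stat2: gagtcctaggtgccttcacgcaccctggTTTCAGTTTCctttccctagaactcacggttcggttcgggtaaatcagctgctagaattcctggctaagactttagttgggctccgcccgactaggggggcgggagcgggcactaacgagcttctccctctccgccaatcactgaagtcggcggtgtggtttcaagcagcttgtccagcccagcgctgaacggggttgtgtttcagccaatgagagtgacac
Irf7: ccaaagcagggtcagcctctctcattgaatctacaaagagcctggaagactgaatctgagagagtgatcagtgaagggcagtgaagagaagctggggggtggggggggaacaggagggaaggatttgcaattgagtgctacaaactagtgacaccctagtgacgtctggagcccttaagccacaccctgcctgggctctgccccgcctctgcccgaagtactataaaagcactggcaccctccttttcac
Irf1: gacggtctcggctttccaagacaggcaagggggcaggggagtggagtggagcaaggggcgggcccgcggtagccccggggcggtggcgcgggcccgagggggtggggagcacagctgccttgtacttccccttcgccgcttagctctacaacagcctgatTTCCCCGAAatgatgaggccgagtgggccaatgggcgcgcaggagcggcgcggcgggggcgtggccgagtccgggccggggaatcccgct
Irf2: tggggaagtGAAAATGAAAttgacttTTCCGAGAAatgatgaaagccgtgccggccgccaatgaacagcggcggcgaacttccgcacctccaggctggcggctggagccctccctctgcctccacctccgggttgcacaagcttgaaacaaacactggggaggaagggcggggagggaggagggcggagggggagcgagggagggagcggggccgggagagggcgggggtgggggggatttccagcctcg

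The motifs searched, on both strands of windows of 250 bases before and 50 after each start, were the core of the interferon-stimulated response element, GAAANNGAAA, and the gamma-activated site, TTCNNNGAA. The first occurred in 3.44% and the second in 8.3% of 32851 RefSeq windows. All 9 genes had an entry, with 11 windows between them. Stat2 held the response element core as TTTCAGTTTC on the reverse strand, from −222 to −213 relative to the start. Irf2 held it as GAAAATGAAA from −241 to −232, and a gamma-activated site match, TTCCGAGAA, from −224 to −216. Irf1 held the gamma-activated site as TTCCCCGAA from −90 to −82. Single matches to that site also lay in the windows of Ifnar1 and Ifnar2. In the windows of Irf3, Irf7, Irf9 and Ifngr1 neither exact string occurred, which says nothing about looser sites or other regions.

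Stat2, the STAT that is particular to type I and type III interferon signalling, read 8.59 in control 1, 8.49 in control 2, 7.65 in DIO 1 and 8.31 in DIO 2. Both DIO arrays were below both controls, and DIO 1 stood 0.66 below DIO 2. The difference of −0.56 ± 0.26 (SE, n = 2 per group), 1.47-fold on the linear scale, did not pass (95% interval −1.27 to 0.16; adjusted p = 0.735 in limma). It was −0.22 without DIO 1 and −0.89 without DIO 2, so its size rests on DIO 1. Irf7, the factor that amplifies the production of type I interferons, measured 9.97 and 9.37 on the control arrays against 9.02 and 9.25 on the DIO arrays. The groups were separated by 0.12, and control 1 stood 0.60 above control 2. Its difference was −0.53 ± 0.25, or 1.45-fold (95% interval −1.23 to 0.16; adjusted p = 0.736 in limma), and it ranged from −0.83 without control 2 to −0.23 without control 1.

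Irf1, which is itself induced by interferon gamma and drives antigen presentation genes, read 8.38 in control 1, 8.69 in control 2, 8.41 in DIO 1 and 7.95 in DIO 2. The groups overlapped, since DIO 1 was above control 1. The difference of −0.36 ± 0.23 (95% interval −0.97 to 0.26; limma, adjusted p = 0.772) kept its sign without any 1 array, between −0.58 without DIO 1 and −0.13 without DIO 2. Irf3, the factor that starts interferon beta production and is present before infection, measured 9.87 and 9.88 on the control arrays against 9.86 and 9.82 on the DIO arrays. Although these groups do not overlap, they are 0.0081 apart, and the difference of −0.03 ± 0.12 (95% interval −0.36 to 0.29; adjusted p = 0.959 in limma) turned to 0.021 after quantile normalization and 0.058 with arrays centred on their median over genes.

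Irf9, the DNA-binding subunit of ISGF3, read 8.95 in control 1, 9.52 in control 2, 8.83 in DIO 1 and 9.16 in DIO 2. Irf2, the repressor, measured 7.60 and 8.18 on the control arrays against 7.39 and 7.93 on the DIO arrays. In both genes control 2 was highest, followed by DIO 2, control 1 and DIO 1, so that mouse number separated the arrays more than group did. Their differences were −0.24 ± 0.26 for Irf9 (95% interval −0.94 to 0.46; limma, adjusted p = 0.849) and −0.23 ± 0.30 for Irf2 (95% interval −1.05 to 0.59; limma, adjusted p = 0.878). Without control 2 they turned to 0.043 and 0.060, and Irf2 was at 0.04 without DIO 1. The epidermal markers also had control 2 highest and DIO 2 next, at averages of 12.09 and 9.38, and their part in these values was not tested.

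**Figure D2:**
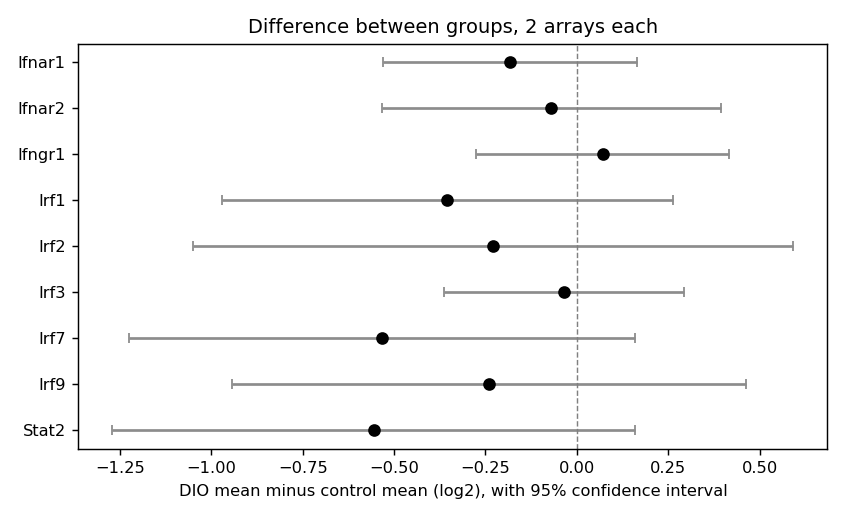
Difference between the DIO mean and the control mean (log2, horizontal axis) for each of the 9 genes, with its 95% confidence interval from limma and a dashed line at 0. All 9 intervals cross 0, and they are wider for Irf2, Irf7, Irf9 and Stat2, with half-widths of 0.69 to 0.82, than for Ifnar1, Ifngr1 and Irf3, with 0.33 to 0.35.

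**Figure D3:**
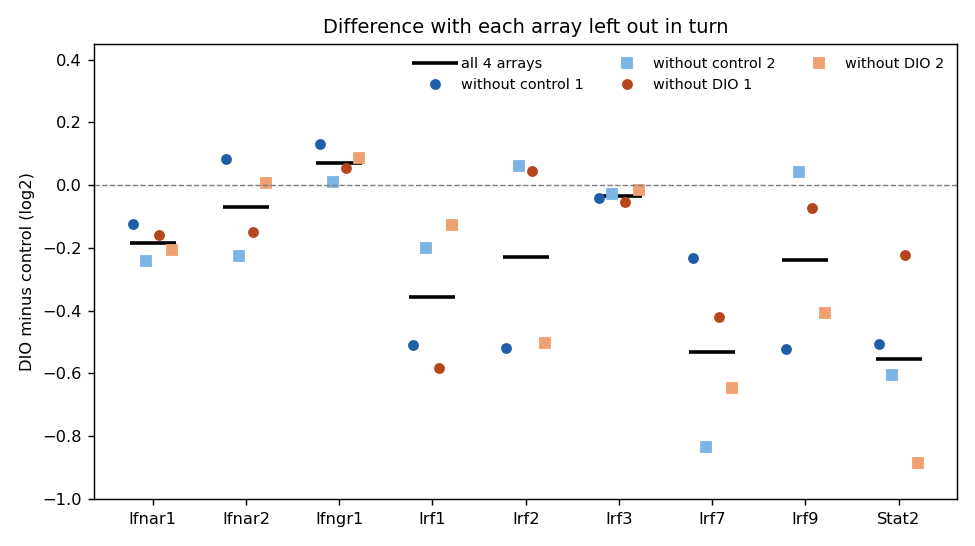
Difference between DIO and control (log2, vertical axis) for each gene over all 4 arrays (black bar) and with each array left out in turn (coloured points). Ifnar1, Irf1, Irf3, Irf7 and Stat2 stay below 0 and Ifngr1 above it, while Ifnar2, Irf2 and Irf9 cross 0 when 1 array is removed.

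Of the 9 genes, 4 were measured by more than 1 probe set, and these did not always show the same difference. On this platform a name ending in _x_at marks probes that may also bind other sequences, and _a_at marks probes shared by alternative transcripts of 1 gene. The single Irf2 probe set, 1418265_s_at, has a further ending, and which transcripts it detects was not examined here. The brightest Ifnar1 probe set, 1449026_at, gave the values above. The other, 1442222_at, read 7.06 in control 1, 7.09 in control 2, 6.07 in DIO 1 and 6.11 in DIO 2. The arrays of each group lay close together, the groups did not overlap, and the difference was −0.98 ± 0.11 (limma over 45037 probe sets, unadjusted p = 0.000624, adjusted p = 0.531). The spacing between the probe sets on each array, which carries their unequal binding, was 2.95 and 2.80 on the control arrays against 3.67 and 3.68 on the DIO arrays, 0.80 wider in DIO. Which transcripts each Ifnar1 probe set detects was not examined here.

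Irf3 had 4 probe sets. Of these, 1426111_x_at and 1416898_a_at differed by −0.03 and −0.05. The third, 1435271_at, measured 7.18 and 7.01 on the control arrays against 6.79 and 6.65 on the DIO arrays, differing by −0.38 ± 0.13 (unadjusted p = 0.0440, adjusted p = 0.536 in limma). The fourth, 1438721_a_at, read 7.15 in control 1, 7.07 in control 2, 6.59 in DIO 1 and 6.60 in DIO 2, differing by −0.51 ± 0.11 (unadjusted p = 0.00906, adjusted p = 0.531 in limma). These last probe sets both had non-overlapping groups, and averaged over its probe sets Irf3 differed by −0.24. The 3 probe sets of Ifnar2 differed by −0.07, 0.07 and 0.03. For Stat2 the second probe set, 1450403_at, measured 7.52 and 7.20 on the control arrays against 6.69 and 6.99 on the DIO arrays. Its difference of −0.52 ± 0.18 (unadjusted p = 0.0440, adjusted p = 0.536 in limma) was close to that of the other probe set, and DIO 1 was again the lowest array. Over the 16 probe sets, both DIO arrays lay below both controls in 8, against 19.0% of all probe sets. In limma, 4 had an unadjusted p below 0.05 downward, against 5.17%, and 0 passed after adjustment. The 8 came from Ifnar1, Irf3, Irf7 and Stat2, and the 4 from Ifnar1, Irf3 and Stat2. Probe sets of 1 gene on the same arrays are not independent, so these counts add no genes to those above.

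**Figure D4:**
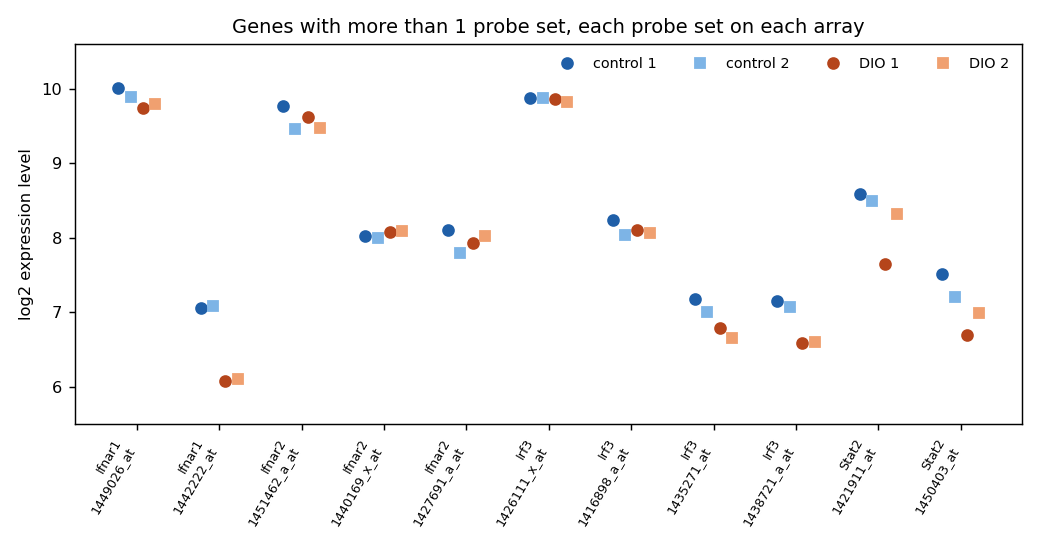
Log2 level (vertical axis) of each probe set of the 4 genes that have more than 1, on the 4 arrays. The DIO mean of Ifnar1 1442222_at is 0.98 below the control mean, while Ifnar1 1449026_at differs by −0.18.

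The order control 1, control 2, DIO 2, DIO 1 from highest to lowest, taken from Stat2, was shared by Irf7 and Ifnar1, and by 3.63% of all genes. These genes were already among those with both DIO arrays below both controls, a pattern of 17.0% of all genes. The shared order is thus no separate result. As a description over 4 arrays only, the profile of Irf2 was closest among the other members and pathway genes to that of Irf9, with a root mean square difference of 0.08 after each gene's mean was subtracted, and 11 genes of the table were closer. Irf7 was closest to Tlr3, a sensor of double-stranded RNA, at 0.06, with 5 genes closer, and over all named genes to the imprinted gene Peg10 at 0.05. Stat2 was closest over all named genes to Ddx60, an RNA helicase, at 0.04. Such closeness is common with 4 arrays: Irf1 had 573 genes closer than its nearest pathway gene, Ptpn1.

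Around these genes, 120 other interferon pathway genes were listed by role, of which 101 were measured. Of these, 68 had a lower and 33 a higher DIO mean, 43 had both DIO arrays below both controls and 14 both above (against 17.0% and 21.4% of all genes), and their median difference was −0.13. None passed in limma after adjustment over all genes, while 22 had an unadjusted p below 0.05 downward and 3 upward, against 3.32% and 3.26% of all genes. The lists are not independent of earlier results on these arrays.

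At the receptor level, 3 further subunits were measured. Ifnlr1, the specific chain of the type III interferon receptor, read 9.23 in control 1, 9.36 in control 2, 8.48 in DIO 1 and 8.52 in DIO 2. The difference of −0.79 ± 0.13 (SE, n = 2 per group) did not pass (limma, adjusted p = 0.728, unadjusted p = 0.00311). It stayed between −0.86 and −0.73 without any 1 array. Il10rb, the chain that type III interferons share with interleukin-10, differed by −0.35 ± 0.33, and by 0.09 without control 2. Ifngr2, the second chain of the interferon gamma receptor, differed by 0.17 ± 0.20 and was at 7.38 in DIO 1 against 6.91 to 6.97 on the other arrays.

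Of the 4 Janus kinases, 3 had a lower DIO mean, with a median of −0.08 that turned to 0.01 with arrays centred on their median over genes. Jak1, which serves both interferon receptor types, differed by −0.10 ± 0.15 and Tyk2 by −0.07 ± 0.14 (1 of 2 Tyk2 probe sets with the opposite sign). The 3 Jak1 probe sets ranged from −0.57 to −0.10. Jak2, which serves the interferon gamma receptor, differed by −0.20 ± 0.13 with non-overlapping groups, and its other probe set by −0.41. Of 5 other STAT genes, 4 had a lower DIO mean. Stat3, which transmits interleukin-6 family signals, measured 10.25 and 10.53 on the control arrays against 9.89 and 9.96 on the DIO arrays, differing by −0.47 ± 0.16 (limma, adjusted p = 0.728), and 1 of its 4 probe sets had the opposite sign. Stat6, the interleukin-4 factor, differed by 0.05 ± 0.20 and Stat5a by −0.27 ± 0.14. Among 3 other IRF genes, Irf5 differed by 0.27 ± 0.13, and Irf8 and Irf4, known from leukocytes, by 0.05 and −0.02. All 3 lay below the median of gene means. The other probe sets of Irf5, Irf8 and Irf4 differed by 0.03, 0.46 and 0.53, which for Irf4 is the opposite sign.

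Interferon ligands gave little signal. All 9 measured ligand genes lay below the median of gene means, between 3.23 and 4.58, and Ifnb1, the interferon beta gene, averaged 3.98 in the controls and 3.83 in DIO. The interferon alpha genes are near-identical copies, so their probe sets may not separate them. Of 13 feedback inhibitors, 9 had a lower DIO mean with a median of −0.08, which turned to 0.01 with arrays centred on their median over genes. Usp18, which blocks Ifnar2 and is itself an interferon target, measured 10.51 and 10.96 on the control arrays against 10.14 and 10.02 on the DIO arrays. It differed by −0.66 ± 0.20 (limma, adjusted p = 0.728). The phosphatases Ptpn6 and Ptpn2 differed by 0.33 ± 0.13 and 0.14 ± 0.14 (the other Ptpn6 probe set at 0.05, and 1 of 4 Ptpn2 probe sets with the opposite sign). The corepressor Irf2bp2 differed by 0.02 ± 0.15 (2 of 4 probe sets with the opposite sign). Of 13 nucleic acid sensors and adaptors, 7 had a lower and 6 a higher DIO mean. The ubiquitin ligase Trim25 differed by −0.47 ± 0.13 and the RNA sensor Ifih1 by −0.29 ± 0.18, and the dim toll-like receptors Tlr7 and Tlr9 by 0.49 ± 0.14 (1 of 3 probe sets with the opposite sign) and 0.46 ± 0.12. The kinases and adaptors that activate IRF factors had a median of 0.04 over 7 genes (0.13 with arrays centred on their median over genes), with Tbk1, which phosphorylates Irf3, at 0.15 ± 0.18, and at −0.03 without control 2, and Irak1, a kinase of toll-like receptor signalling, at −0.22 ± 0.13 (1 of 4 probe sets with the opposite sign).

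Downstream, 19 of 25 type I interferon targets had a lower DIO mean, 18 had both DIO arrays below both controls, and the median was −0.43. Over all genes 17.0% had that pattern. The count of 18 was 17 after quantile normalization (15.4% of all genes) and 15 with arrays centred on their median over genes (9.89% of all genes). The list averaged 8.53 and 8.52 on the control arrays against 8.03 and 8.24 on the DIO arrays. Trim30a read 8.09 in control 1, 8.43 in control 2, 6.48 in DIO 1 and 6.99 in DIO 2, differing by −1.52 ± 0.24, and Parp14 differed by −0.69 ± 0.13 (limma, adjusted p = 0.728 for both). The other Parp14 probe set differed by −0.17. The 2 brightest genes of the list, the antiviral Rsad2 and the virus tether Bst2, differed by −0.76 ± 0.17 and 0.03 ± 0.17. Of 21 interferon gamma targets, 16 had a lower DIO mean, 9 had both DIO arrays below both controls, against 17.0% of all genes, and the median was −0.16, with the GTPases Irgm1, Gbp6 and Igtp at −0.98 ± 0.21, −0.56 ± 0.12 and −0.43 ± 0.15 and the class I light chain B2m at −0.06 ± 0.15. Their median was −0.28 without control 1, where 14 of 21 had both DIO arrays below (29.6% of all genes). Without control 2 it was −0.05, where 11 did (42.3%). Without DIO 1 it was −0.10, where 10 did (29.2%). With arrays centred on their median over genes, 12 had a lower DIO mean, against 5875 of 18193 over all genes. In that setting 7 had both DIO arrays below (9.89% of all genes), and the median was −0.07.

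**Figure D5:**
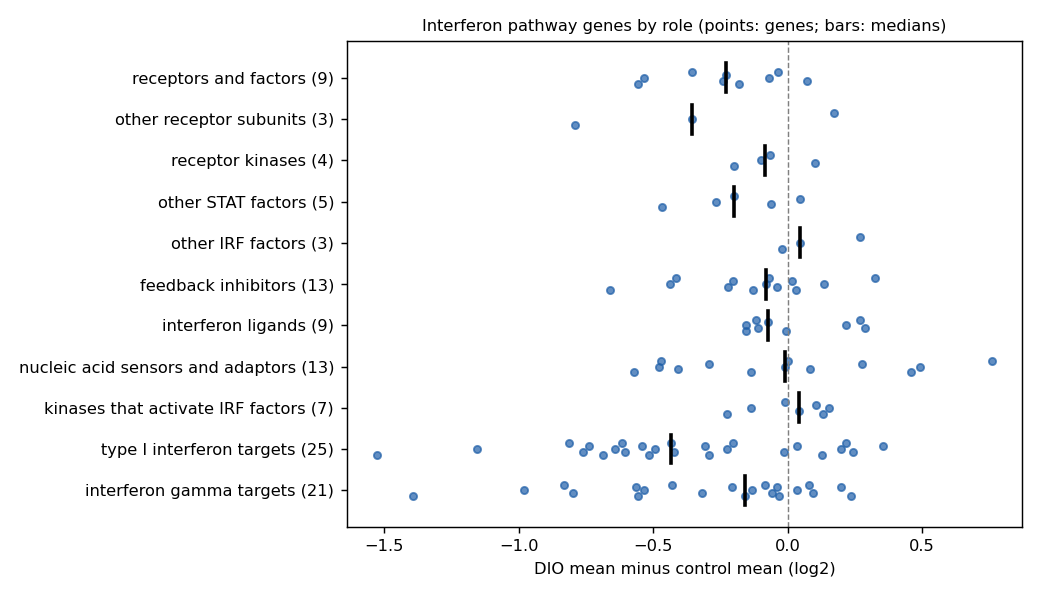
Difference between DIO and control means (log2, horizontal axis) for each gene of the interferon pathway, grouped by role, with the number measured in brackets, a point per gene and a bar at each median. The type I interferon targets have a median of −0.43, the 9 receptors and factors −0.23 and the kinases that activate IRF factors 0.04.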

How the data were processed

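Biotin-labelled RNA from 4 cultures was hybridized to Affymetrix mouse arrays, per the labels' protocols. The authors deposited 1 table of log2 expression levels per probe set, from 2.59 to 14.56. The scale was read from these values, while background correction, normalization and summary were not given in the sources used here. Of 45101 probe sets, 64 manufacturer controls were left out of tests, 34945 had 1 gene symbol in the platform annotation, 932 had several and 9160 had no symbol there or were not listed. Of those with 1 symbol, 34741 matched RefSeq (GRCm38.p6) by gene number. Each gene took its probe set with the highest mean, with no filter on dim probe sets. Groups were compared with the 2-sided moderated test of limma 3.58.1 (lmFit, then eBayes; R 4.3.3), and p-values were adjusted by Benjamini-Hochberg over the 18193 genes, or over 45037 probe sets, with a threshold of 0.05. The fit was tested on simulated data. Only 2 arrays per group limit the precision: the median 95% half-width was 0.456. Promoter sequences came from RefSeq. The 9 genes and all lists were chosen with earlier results of these data known. From each list the naming rule took the 2 genes with the highest mean and up to 2 more with non-overlapping groups, in order of p, and for likeness the closest genes; of the ligands and markers only part is printed. Ifngr2, Irf4, Ifnb1, Ptprc and Cd68 were named after their values were seen. Alternatives were other scalings, filters, probe set rules, variance models, a replicate block and leaving out each array.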

Additional observations from a re-analysis of the deposited data

How the results depend on the processing

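Alternatives were quantile normalization, centring on the median of all probe sets, dropping genes in the lowest 40% by mean, taking the mean of each gene's probe sets, fitting all probe sets, a trended and robust eBayes, a replicate block, and leaving out each array. Centring on the median over genes was chosen after seeing the data. The filter, the variance model and the block leave each difference as it is. Over 72 values of the 9 genes under the other settings, 63 kept their direction. None of the 9 passed the threshold in limma under any of them. Direction changed for Irf3 after quantile normalization (0.021) and with centring over genes (0.058), and for Ifnar2 with averaged probe sets (0.010) and with centring over genes (0.022). With arrays left out, Ifnar2 ranged from −0.23 to 0.085, Irf2 from −0.52 to 0.060 (0.04 also without DIO 1) and Irf9 from −0.52 to 0.043. The receptors' median, −0.07, was 0.010 with averaged probe sets and 0.022 with centring over genes, and ranged from −0.23 to 0.085 with arrays left out. Genes with both DIO arrays below both controls numbered 1 of the 9 with centring over genes (9.89% of all genes), and 7, 5, 5 and 6 without control 1, control 2, DIO 1 and DIO 2 (29.6%, 42.3%, 29.2% and 25.4% of all genes), where fewer arrays make the pattern easier to meet. Averaging probe sets moved Ifnar1 from −0.18 to −0.58. Over all genes, 0 passed the threshold in limma, and 0 under the trended and robust eBayes, while 1198 had an unadjusted p below 0.05, 594 higher and 604 lower. That split was 772 and 473 after quantile normalization and 1072 and 327 with centring over genes, which moved the median of all genes from 0.02 to 0.11. Genes with an unadjusted p below 0.05 numbered 607 of the 10916 left without the lowest 40%, 4184 over all probe sets, and 171 to 3689 with arrays left out. Without control 1, 483 genes passed, and without any other array 0. With mouse number as a replicate block, 0 genes passed, 982 had an unadjusted p below 0.05, and the lowest adjusted p among the 9 genes was 0.727. Arrays of the same number deviated together (r = 0.33 across genes). They came from different mice, so the numbers do not pair mice. Whether arrays of the same number shared anything else was not tested. The causes of these changes were not tested. How far dim probe sets lie above background is unknown.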
